A study of Homo sapiens with 12 samples.

Results

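EPHB2, SYNDIG1, FEZ1, PACSIN3 and COTL1 are 5 of the 59276 gene symbols measured in JJN3 cells, and of 11932 genes tested in both comparisons of the study. They were selected on their measured values, as genes whose mRNA the inhibitor MS023 moved one way relative to DMSO and the PRMT1 guide moved the other way relative to a control guide. EPHB2, SYNDIG1, FEZ1 and PACSIN3 were lower with MS023 and higher in iPRMT1 cells. COTL1 was higher with MS023 and lower in iPRMT1 cells. Because the choice used both differences, their size and sign are given as a description with no test. The difference between the 2 control groups, isgCtrl minus DMSO, shares all of its samples with the other differences and is treated the same way.

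JJN3, a cell line, derives from human multiple myeloma, a plasma cell cancer. The RNA of 12 samples, 3 in each of 4 groups, was sequenced. JJN3 cells were kept for 3 days in DMSO, the solvent control, or in MS023 at 10 µM. The other groups, isgCtrl and iPRMT1, were JJN3 cells that carried lentiviral Cas9 with an mCherry reporter and an inducible guide RNA with a puromycin resistance gene. They were sorted for mCherry and selected with puromycin, and the guide, a control guide in isgCtrl and the PRMT1 guide iPRMT1_1 in iPRMT1, was induced with doxycycline for 3 days. All 4 groups share the JJN3 background. Cas9, the guide vector, the mCherry sort, the puromycin selection and doxycycline were shared by isgCtrl and iPRMT1 only. In isgCtrl minus DMSO, these and the DMSO solvent on the other side cannot be told apart from each other. A single PRMT1 guide was used, and doxycycline-treated cells without a guide vector were not analysed here. The labels do not say whether replicates were separate cultures, so the p-values below measure only the spread between these samples.

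PRMT1 is the main enzyme that adds asymmetric dimethyl marks to arginines of histones and RNA-binding proteins, and MS023 blocks the catalytic activity of the type I arginine methyltransferases, the family to which PRMT1 belongs. A guide RNA with Cas9 cuts the gene itself, whereas the inhibitor leaves the protein in place and reaches related enzymes as well. The 5 genes encode proteins of signalling and of the cytoskeleton that are best known from neurons, muscle or motile blood cells. EPHB2 is a receptor tyrosine kinase that binds membrane-bound ephrins and transmits contact signals between cells. SYNDIG1 is a membrane protein that regulates AMPA-type glutamate receptors at developing synapses. FEZ1 links cargo to the motor kinesin-1 and acts in axon growth, PACSIN3 bends membranes through its F-BAR domain and binds dynamin, and COTL1 binds filamentous actin and 5-lipoxygenase.

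PRMT1 mRNA, the check of the labels, was 859.8 ± 9.15 TPM (SD, n = 3) in isgCtrl and 304 ± 4.34 TPM in iPRMT1. It was 653 ± 18.3 TPM in DMSO and 673 ± 23.6 TPM with MS023. TPM is a level that allows for transcript length and scales every library to one total, so the depth of a sample is unknown from it. The difference of log2(TPM+1) for iPRMT1 minus isgCtrl was -1.497 (limma, Benjamini-Hochberg adjusted p = 0.00072), against 0.04 for MS023 minus DMSO (limma, Benjamini-Hochberg adjusted p = 0.597). Between the controls, PRMT1 was higher in isgCtrl, with isgCtrl minus DMSO of 0.396 (limma, Benjamini-Hochberg adjusted p = 0.00364). Of 6 plasma cell markers, SDC1, TNFRSF17, XBP1, IRF4 and PRDM1 had mean levels of at least 23.2 TPM in every group. MZB1 had 105 TPM in DMSO and 178 TPM in MS023, but 2.01 TPM in isgCtrl and 1.009 TPM in iPRMT1. All markers of B cells, T cells and monocytes stayed under 0.71 TPM in every group. Among 4 neuronal markers, SYP, RBFOX3, MAP2 and SNAP25, the highest mean was 6.62 TPM, for MAP2 with MS023. MAP2 was 4.63 TPM in DMSO, 3.07 TPM in isgCtrl and 3.03 TPM in iPRMT1, and RBFOX3 was at most 0.541 TPM in any group.

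The levels of EPHB2 set MS023 apart from all other groups. Values of log2(TPM+1) were 3.11, 2.96 and 3.14 in DMSO, and 1.83, 1.74 and 2.16 with MS023. In isgCtrl they were 3.06, 3.03 and 3.14, and in iPRMT1 3.54, 3.60 and 3.59. All MS023 samples lay below all samples of the 3 other groups, and all iPRMT1 samples lay above them. DMSO and isgCtrl overlapped. As mean levels, EPHB2 had 7.43 ± 0.55 TPM (SD, n = 3) in DMSO, 2.78 ± 0.594 TPM with MS023, 7.44 ± 0.346 TPM in isgCtrl and 10.9 ± 0.262 TPM in iPRMT1. The difference of log2(TPM+1) was -1.17 with a standard error of 0.12 for MS023 minus DMSO, and 0.50 with a standard error of 0.05 for iPRMT1 minus isgCtrl. Between the controls it was 0.0025 with a standard error of 0.07, so the controls of both comparisons had overlapping levels of EPHB2. In these bulk RNA samples, a change in the share of cells that express a gene and a change in RNA per cell cannot be told apart.

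PACSIN3 shared the order of EPHB2 at a lower level. DMSO samples had log2(TPM+1) of 2.04, 1.82 and 1.83, and MS023 samples 0.73, 0.82 and 0.58. isgCtrl samples had 2.14, 2.20 and 2.20, and iPRMT1 samples 2.65, 2.87 and 2.69. No groups overlapped, and the order from high to low was iPRMT1, isgCtrl, DMSO and MS023. Mean levels were 5.68 ± 0.532 TPM (SD, n = 3) in iPRMT1, 3.53 ± 0.104 TPM in isgCtrl, 2.74 ± 0.332 TPM in DMSO and 0.641 ± 0.137 TPM with MS023. With MS023 the transcript was therefore at 23.4% of its level in DMSO, the lowest such share of the 5 genes. MS023 minus DMSO was -1.19 with a standard error of 0.10 on the log2(TPM+1) scale, and iPRMT1 minus isgCtrl was 0.56 with a standard error of 0.07. The controls differed by 0.28 with a standard error of 0.08, in the same direction as iPRMT1. PACSIN3 passed the filter on low values in the MS023 comparison through DMSO alone, since its MS023 mean of 0.71 is under the minimum of 1. The log2(TPM+1) scale understates the change of genes as low as this.

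SYNDIG1 had another order. Its log2(TPM+1) was 3.01, 2.86 and 2.93 in DMSO but 1.51, 1.34 and 1.86 with MS023. isgCtrl samples, at 1.64, 1.33 and 1.57, were as low as those with MS023 and overlapped with them, while iPRMT1 samples had 2.31, 2.31 and 2.39. The iPRMT1 samples therefore lay between the controls, above isgCtrl and below DMSO, with no overlap to either side. SYNDIG1 had 6.65 ± 0.411 TPM (SD, n = 3) in DMSO, 2.01 ± 0.569 TPM with MS023, 1.87 ± 0.31 TPM in isgCtrl and 4.05 ± 0.156 TPM in iPRMT1. On the log2(TPM+1) scale, MS023 minus DMSO was -1.36 with a standard error of 0.14, iPRMT1 minus isgCtrl was 0.82 with a standard error of 0.09, and isgCtrl minus DMSO was -1.42 with a standard error of 0.10. The gene was at 217% of the isgCtrl level in iPRMT1 but at 60.9% of the DMSO level.

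FEZ1 followed the order of SYNDIG1 at a higher level. The DMSO samples had log2(TPM+1) of 5.01, 5.09 and 4.60 and the MS023 samples 3.53, 3.68 and 3.88. Values were 3.31, 3.47 and 3.55 in isgCtrl and 4.14, 4.11 and 4.18 in iPRMT1. DMSO was highest, iPRMT1 came next without overlap, and MS023 and isgCtrl overlapped below both. DMSO replicate 3 was the lowest of its group and still above every sample of the other groups. Mean levels were 29.1 ± 5.2 TPM (SD, n = 3) in DMSO, 12.03 ± 1.58 TPM with MS023, 9.9 ± 0.892 TPM in isgCtrl and 16.7 ± 0.461 TPM in iPRMT1. The differences of log2(TPM+1) were -1.20 (standard error 0.16) for MS023 minus DMSO, 0.70 (standard error 0.07) for iPRMT1 minus isgCtrl and -1.46 (standard error 0.14) for isgCtrl minus DMSO. Relative to DMSO, FEZ1 in iPRMT1 cells was at 57.2%.

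COTL1, the gene that moved the other way round, formed a high and a low pair of groups. Its log2(TPM+1) was 4.80, 4.90 and 4.95 in DMSO and 5.24, 5.40 and 5.45 with MS023. It was 5.39, 5.37 and 5.36 in isgCtrl and 4.76, 4.72 and 4.84 in iPRMT1. MS023 and isgCtrl overlapped at the upper level, DMSO and iPRMT1 overlapped at the lower one, and no sample of one pair reached the other. The means were 40.3 ± 3.08 TPM (SD, n = 3) with MS023 and 40.5 ± 0.521 TPM in isgCtrl, against 28.6 ± 1.5 TPM in DMSO and 26.3 ± 1.15 TPM in iPRMT1. On the log2(TPM+1) scale, MS023 minus DMSO was 0.48 (standard error 0.08), iPRMT1 minus isgCtrl was -0.60 (standard error 0.05) and isgCtrl minus DMSO was 0.49 (standard error 0.06).

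**Figure D1:**
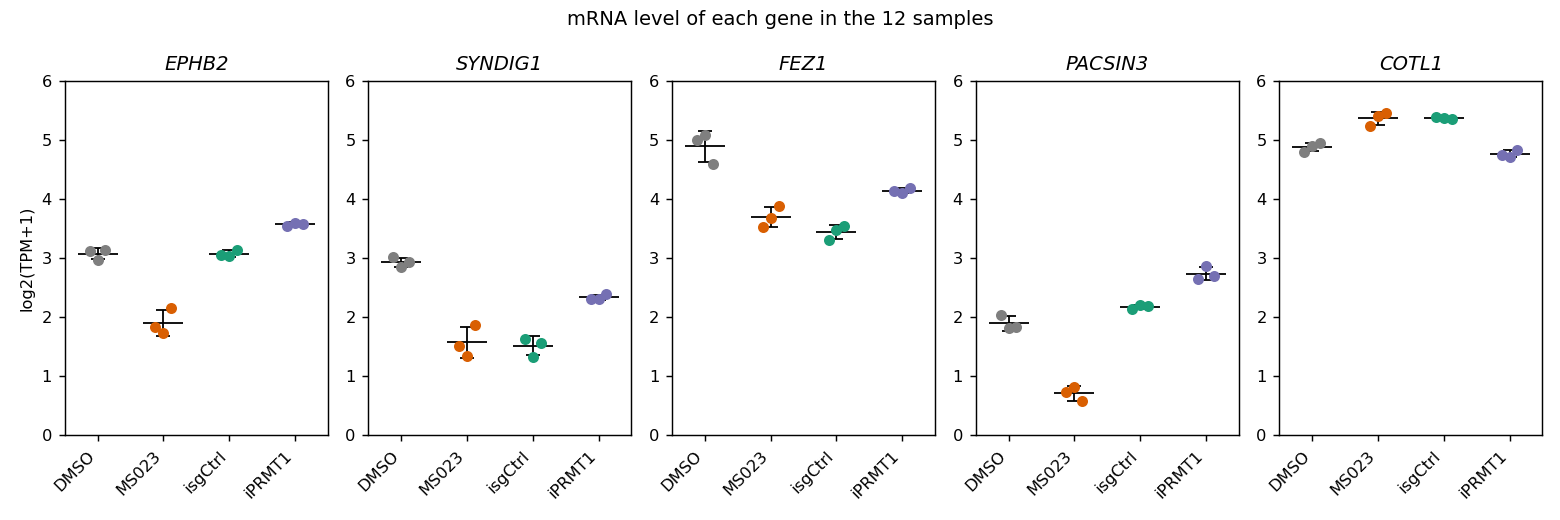
mRNA level of the 5 genes as log2(TPM+1) (y axis) in DMSO, MS023, isgCtrl and iPRMT1 cells (x axis). Points are samples, and horizontal lines with bars are the mean ± SD of 3 samples. EPHB2 and PACSIN3 are lowest with MS023 and highest in iPRMT1, whereas for SYNDIG1 and FEZ1 the isgCtrl samples lie as low as those with MS023 and the DMSO samples are highest.

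The level in the control groups therefore separated the 5 genes. For EPHB2 and PACSIN3, MS023 lay below both controls and iPRMT1 above both, so their opposite signs held whichever control was the reference. Against isgCtrl, MS023 samples had a difference of log2(TPM+1) of -1.17 for EPHB2 and -1.47 for PACSIN3, and against DMSO, iPRMT1 samples had 0.50 and 0.84. SYNDIG1 and FEZ1 had opposite signs with each comparison's own control but not with either control as the reference for both, and COTL1 kept them with DMSO as the reference for both, where iPRMT1 and DMSO overlapped, but not with isgCtrl. With DMSO as the reference, iPRMT1 had differences of -0.60 for SYNDIG1, -0.76 for FEZ1 and -0.11 for COTL1. With isgCtrl as the reference, MS023 had differences of 0.06 for SYNDIG1, 0.25 for FEZ1 and -0.01 for COTL1. In TPM, isgCtrl stood at 28.1% of DMSO for SYNDIG1, 34.0% for FEZ1, 100.1% for EPHB2, 129% for PACSIN3 and 142% for COTL1. These comparisons cross the treated and the engineered cells, and MZB1 differed between them as given above. Its part in the values was not tested.

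**Figure D2:**
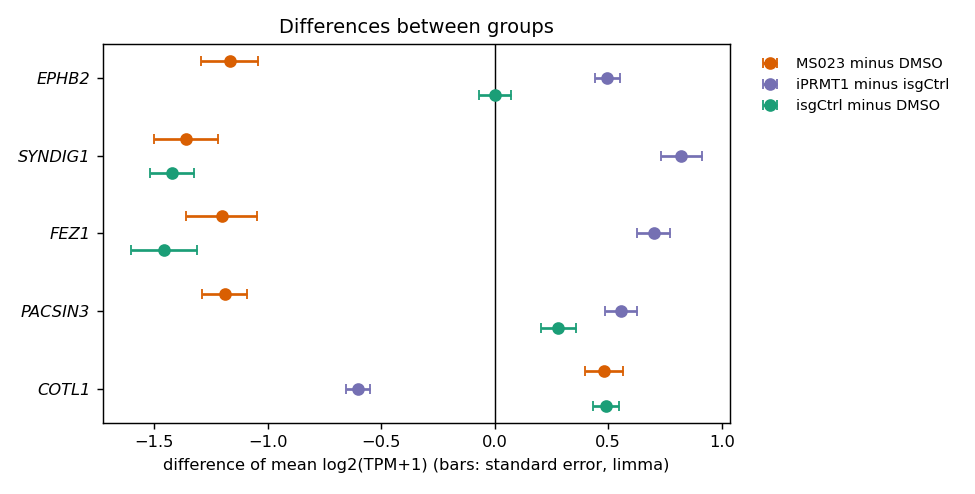
Difference of mean log2(TPM+1) between groups (x axis) for the 5 genes (y axis), with bars for the limma standard error. isgCtrl minus DMSO is near that of MS023 minus DMSO for SYNDIG1, FEZ1 and COTL1, at -1.42, -1.46 and 0.49, but 0.0025 for EPHB2 and 0.28 for PACSIN3.

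In the fits made here, all 5 genes were DEGs in both comparisons. DEGs had an adjusted p under 0.05 and an absolute difference above 0.48, thresholds of the study's methods. The genes were chosen on these same differences, so their calls are no independent result. The study also asked for log2(TPM+1) above 1, which was applied here to the mean of at least 1 group. It reported far fewer DEGs with MS023 than the 3986 found here, and fewer shared by both comparisons than the 47 here. Its number for the PRMT1 knockout was close to the 96 here. The calls here, above all those with MS023, are therefore not its own. Over all genes, 30.9% of 12903 were DEGs in MS023 minus DMSO and 0.781% of 12285 in iPRMT1 minus isgCtrl. In isgCtrl minus DMSO, SYNDIG1, FEZ1 and COTL1 met the thresholds, where 13.9% of 12661 genes did. Between the controls, COTL1 fell short of 0.48 under median-ratio scaling, at 0.412, under quantile normalization, at 0.417, and without DMSO replicate 1, at 0.449. The samples of the groups did not overlap for 5 of the 5 genes in MS023 minus DMSO, where this held for 59.5% of all genes, and for 5 of 5 in iPRMT1 minus isgCtrl, where it held for 26.7%. In isgCtrl minus DMSO 4 of 5 did not overlap, against 51.7% of all genes. The inhibitor comparison was much the broader, so a large value there was less rare. In MS023 minus DMSO, 3.53% of genes had a larger absolute difference than SYNDIG1 and 35.1% a larger one than COTL1. In iPRMT1 minus isgCtrl, between 1.07% of genes, for SYNDIG1, and 4.55%, for EPHB2, had a larger one. The DEGs of iPRMT1 minus isgCtrl depended on all samples: with any sample left out, none of the 5 genes met its thresholds. The differences themselves stayed within 0.47 to 0.53 for EPHB2, 0.73 to 0.88 for SYNDIG1, 0.63 to 0.75 for FEZ1, 0.49 to 0.60 for PACSIN3 and -0.64 to -0.58 for COTL1 when a sample was left out. COTL1 with MS023 also missed them without MS023 replicate 2 (0.464), MS023 replicate 3 (0.439) or DMSO replicate 1 (0.441).

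Of the 11932 genes tested in both comparisons, 4543 had opposite signs. Of 47 genes that were DEGs in both, 7 had opposite signs, which are the 5 genes, IL10 and SLC43A2. IL10 encodes an anti-inflammatory cytokine. It passed the filter on low values in the MS023 comparison through MS023 alone, with a DMSO mean under the minimum of 1. Its mean log2(TPM+1) was 0.72 in DMSO, 3.75 with MS023, 2.33 in isgCtrl and 1.79 in iPRMT1. SLC43A2, a transporter of large neutral amino acids, had 1.93, 2.77, 3.15 and 2.62 in the same order. Like SYNDIG1, FEZ1 and COTL1, both had isgCtrl on the same side of DMSO as MS023, with isgCtrl minus DMSO of 1.61 for IL10 and 1.22 for SLC43A2. COTL1 was the member nearest to the threshold, with 0.482 as the smaller of its absolute differences, and EPHB2 followed with 0.497. Just outside lay NRGN, with -0.66 for MS023 minus DMSO and 0.47 for iPRMT1 minus isgCtrl, and FSCN1, an actin-bundling protein, with 0.46 and -0.44. KHDRBS2, with -0.44 and 0.54, and DBN1, with -0.42 and 0.49, came next. KHDRBS2 passed the filter through DMSO alone in MS023 minus DMSO and through iPRMT1 alone in iPRMT1 minus isgCtrl.

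**Figure D3:**
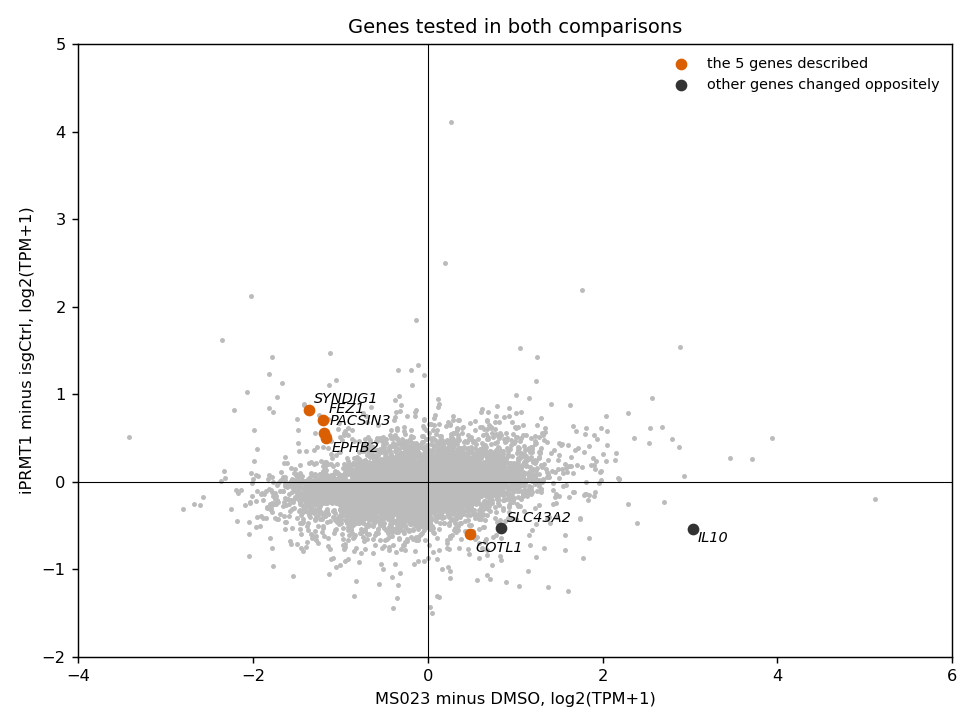
Difference of log2(TPM+1) for MS023 minus DMSO (x axis) and iPRMT1 minus isgCtrl (y axis) for the 11932 genes tested in both (grey points). The 5 genes described (orange) and the 2 other DEGs of opposite sign, IL10 and SLC43A2 (black), lie in the upper left and lower right quadrants.

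Over the 12 samples, EPHB2 and PACSIN3 had a Pearson correlation of log2(TPM+1) of 0.963, and SYNDIG1 and FEZ1 one of 0.941. The pairs across these were lower, from 0.192 for FEZ1 and PACSIN3 to 0.517 for EPHB2 and SYNDIG1. COTL1 had negative values with all of the other 4, from -0.817 with SYNDIG1 to -0.631 with PACSIN3. These values describe 4 group levels more than 12 independent points, since samples of a group lay close together and all came from one cell line. The genes were also chosen on differences between these same samples, with COTL1 the only one of reversed sign. Its negative correlations therefore follow in part from that choice. Among 13255 genes, those most like EPHB2 were TMEM237 at 0.98, STARD10 at 0.976 and CBX1 at 0.973. PACSIN3 was nearest to LSM2 at 0.983, SLC25A10 at 0.977 and SLITRK5 at 0.974. SYNDIG1 was nearest to GLCE at 0.964, DACT1 at 0.954 and FEZ1, and FEZ1 to PSMB1 at 0.949, DACT1 at 0.945 and SYNDIG1. COTL1 had less close neighbours in PPP6R1 at 0.908, AKR1B1 at 0.906 and SLC27A4 at 0.887.

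The 5 genes lie at separate loci, all annotated as protein-coding in GENCODE v44 on GRCh38. EPHB2 lies at chr1:22710839-22921500 on the plus strand and SYNDIG1 at chr20:24469629-24666616 on the plus strand. FEZ1 lies at chr11:125442881-125592568 on the minus strand, PACSIN3 at chr11:47177522-47186443 on the minus strand and COTL1 at chr16:84565596-84618078 on the minus strand. The span of FEZ1 overlaps EI24 and STT3A on the plus strand. Whether the quantification used strand is not given in the sources used here, so the assignment of reads in this overlap is uncertain. Promoter sequences of 3 of the 5 genes, EPHB2, FEZ1 and COTL1, were in the RefSeq promoter set used here (GRCh38.p14) and are shown. That set had none for SYNDIG1 and PACSIN3. The promoters shown include both orders of the groups and the gene of reversed sign. The sequences run 5′ to 3′ on the gene's own strand, in the 250 bases before the RefSeq start, without bases of annotated exons. Capitals mark matches on either strand to the motifs given after them. The stretches are chr1:22710588-22710837 for EPHB2 (plus strand), chr11:125496318-125496507 for FEZ1 (minus strand, 190 bases) and chr16:84618079-84618328 for COTL1 (minus strand). The RefSeq start of FEZ1 lies inside the longer span that GENCODE gives.
EPHB2: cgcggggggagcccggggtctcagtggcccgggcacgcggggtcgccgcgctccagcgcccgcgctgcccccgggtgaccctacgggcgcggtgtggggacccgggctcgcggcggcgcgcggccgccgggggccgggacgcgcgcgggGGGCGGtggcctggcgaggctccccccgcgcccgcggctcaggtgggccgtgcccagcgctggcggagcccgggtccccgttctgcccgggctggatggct
FEZ1: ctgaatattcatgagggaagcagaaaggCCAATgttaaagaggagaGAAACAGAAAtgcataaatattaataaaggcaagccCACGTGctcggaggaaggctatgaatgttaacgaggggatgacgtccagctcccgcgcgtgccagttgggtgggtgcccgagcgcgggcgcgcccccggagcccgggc
COTL1: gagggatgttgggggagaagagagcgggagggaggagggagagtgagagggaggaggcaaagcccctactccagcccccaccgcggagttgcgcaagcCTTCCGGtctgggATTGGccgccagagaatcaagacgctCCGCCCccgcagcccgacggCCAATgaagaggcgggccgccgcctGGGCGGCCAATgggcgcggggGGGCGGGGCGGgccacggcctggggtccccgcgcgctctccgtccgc

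All 3 promoter windows were rich in G and C, with 84.8% for EPHB2, 61.2% for FEZ1 and 73.2% for COTL1 over 250 bases, against a median of 58% over 27305 promoters. They held 42, 22 and 25 CpG dinucleotides, against a median of 11. The motifs searched on both strands were the TATA box with the letters TATAAA, the CCAAT box, the GC box with GGGCGG, an AP-1 site with TGANTCA, a cyclic AMP response element with TGACGTCA, an E-box with CACGTG, an ETS site with CCGGAAG and an interferon response core (GAAA, any 2 bases and GAAA again). EPHB2 held 1 GGGCGG, and COTL1 held 4, the last 2 of which overlap in 1 base, with 42.3% of all promoters holding at least 1. CCAAT, found in 33% of promoters, occurred once in FEZ1 and 3 times in COTL1. FEZ1 held 1 CACGTG (6.49% of promoters) and 1 interferon response core (3.07%), and COTL1 held 1 CCGGAAG (8.82%). TATAAA (11.1% of promoters), TGANTCA (6.6%) and TGACGTCA (1.77%) matched none of the 3 windows, and no motif matched all of them. A match is a description of these letters and was not tested for binding.

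The nearest tested protein-coding genes on either side of the 5 genes, with EI24 inside FEZ1, were 11. With MS023 2 of them were DEGs, DDB2 beside PACSIN3 and KDM1A beside EPHB2, where 30.9% of all genes were. In iPRMT1 minus isgCtrl none was a DEG in limma, where 0.781% of all genes were. There 2 had an unadjusted p under 0.05 in limma, as did 2290 of 12285 genes. Between the controls 4 were DEGs, against 13.9% of all genes. Next to PACSIN3, ARFGAP2 at 397 bases had differences of log2(TPM+1) of -0.07 for MS023 minus DMSO and 0.04 for iPRMT1 minus isgCtrl. On its other side, at 28022 bases, DDB2, a DNA damage recognition protein, fell by 1.73 with MS023 (limma, Benjamini-Hochberg adjusted p = 7.36e-05) and had -0.26 in iPRMT1 (limma, Benjamini-Hochberg adjusted p = 0.3275). Beside EPHB2, ZBTB40 had -0.01 and -0.08, and the histone demethylase KDM1A fell by 0.50 with MS023 (limma, Benjamini-Hochberg adjusted p = 0.002367), with -0.11 in iPRMT1. KDM1A fell short of the DEG threshold under median-ratio scaling, quantile normalization and without MS023 replicate 3, where its difference was -0.46. Between the controls it differed by 0.50, a call lost under the same scalings and without isgCtrl replicate 3. Beside SYNDIG1, at 831156 bases, the cystatin gene CST3 was lower in isgCtrl than in DMSO, with a difference of -1.55 (limma, Benjamini-Hochberg adjusted p = 0.001811) and had -0.24 with MS023 and 0.75 in iPRMT1, neither past the test. APMAP, on the other side of SYNDIG1, had 0.40 with MS023 and -0.03 in iPRMT1. Of the genes that overlap FEZ1, STT3A was a DEG between the controls, with isgCtrl minus DMSO of -0.64 (limma, Benjamini-Hochberg adjusted p = 0.0009872), while its 0.43 with MS023 was under the DEG threshold. EI24 had -0.46 with MS023 and 0.02 in iPRMT1, and TMEM218 had -0.22 and -0.11. Beside COTL1, MEAK7 had -0.31 and 0.22, and KLHL36 had -0.16 and -0.31. Between the controls, KLHL36 differed by 0.53 (limma, Benjamini-Hochberg adjusted p = 0.02521), a call that was lost in 6 of 14 alternatives, among them without isgCtrl replicate 1, where the difference was 0.42, and without isgCtrl replicate 3, DMSO replicate 1 or DMSO replicate 2. The highest adjusted p of limma in these was 0.0716.

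Relatives and binding partners of the 5 genes were described from 5 lists. Over all lists, 11 of 52 tested genes (21.2%) were DEGs with MS023, 1 of 49 (2.04%) in iPRMT1 and 4 of 52 (7.69%) between the controls, beside the shares over all genes given above. In limma, 26, 9 and 25 of these had an unadjusted p under 0.05. Over all genes tested, 7286 of 12903, 2290 of 12285 and 5944 of 12661 did. Of 21 Eph receptors and ephrins, 9 were tested with MS023, where none was a DEG with a higher level and 2 were DEGs with a lower one. EPHA3 fell by 0.80 (limma, Benjamini-Hochberg adjusted p = 0.0011) and the ephrin EFNA3 fell by 0.65 (limma, Benjamini-Hochberg adjusted p = 0.00313). The ephrin EFNA4 passed the adjusted p of limma with a difference of -0.38, under the DEG threshold. None of 8 was a DEG of limma in iPRMT1, where 0 had an unadjusted p under 0.05, and EPHA2 was 0.81 higher in isgCtrl than in DMSO. The median difference of the list was -0.17 with MS023, against -0.11 for all genes tested, and -0.05 in iPRMT1, against -0.04. EPHB1, whose mean level was above that of EPHB2 in every group, had 10.2 TPM in DMSO, 9.03 TPM with MS023, 13.7 TPM in isgCtrl and 11.96 TPM in iPRMT1.

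The CD225 family, to which SYNDIG1 belongs together with the interferon-induced IFITM proteins, had 3 of 11 members tested. IFITM1 and IFITM2, which restrict virus entry, rose with MS023 by 0.84 (limma, Benjamini-Hochberg adjusted p = 0.000414) and 1.53 (limma, Benjamini-Hochberg adjusted p = 0.000144), opposite in sign to SYNDIG1. IFITM3 had -0.59, the sign of SYNDIG1, and was not past the test (limma, Benjamini-Hochberg adjusted p = 0.241). The filter on low values was applied anew when a sample was left out, so more members than these 3 could be tested. Without DMSO replicate 3 the family had 4 DEGs with MS023 in place of 2, and 2 between the controls in place of 0. None was a DEG of limma in iPRMT1, where 1 had an unadjusted p under 0.05, or between the controls, where 2 did. IFITM1 to IFITM3 are close in sequence, so the split of reads among them is uncertain. For FEZ1, none of 10 tested members of 16 in the FEZ and kinesin-1 list was a DEG with MS023, none of 9 in iPRMT1 and none of 10 between the controls. In limma 3, 1 and 4 of these had an unadjusted p under 0.05. With MS023, SCOC and KIF5B, with -0.46 and -0.28, and KLC2, with 0.32, passed the adjusted p of limma but not the DEG threshold. Without MS023 replicate 2, without DMSO replicate 3 or with a pseudocount of 0.1 TPM, 1 was a DEG with MS023. FEZ2, its paralogue, ranged from 11.97 TPM with MS023 to 14.3 TPM in iPRMT1. KIF5B, the kinesin-1 heavy chain of highest level, ranged from 18.4 TPM with MS023 to 22.5 TPM in DMSO.

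Among 26 F-BAR proteins and dynamin partners, 19 were tested in MS023 minus DMSO, where 3 were DEGs with a higher level and none with a lower one. PACSIN1, a paralogue of PACSIN3, rose by 1.12 (limma, Benjamini-Hochberg adjusted p = 0.0004), GAS7 by 1.39 and FCHSD1 by 0.61, so PACSIN1 and PACSIN3 had opposite signs with MS023. Past the adjusted p of limma but under the DEG threshold were FNBP1, GMIP and ARHGAP45, with 0.4798, 0.40 and 0.22, and PSTPIP2, FCHSD2 and ARHGAP4, with -0.40, -0.36 and -0.31. The 3 DEGs became 5 without MS023 replicate 1, 5 under median-ratio scaling or with a pseudocount of 0.1 TPM, and 6 under quantile normalization. The median of the list was 0.16 with MS023, against -0.11 for all genes tested. None of 19 was a DEG of limma in iPRMT1, where 5 had an unadjusted p under 0.05. Between the controls, PACSIN1 was lower in isgCtrl, with a difference of -2.02 (limma, Benjamini-Hochberg adjusted p = 0.000196), as was GAS7 with -0.98, and PACSIN2 was 0.52 higher. PACSIN1 had 3.41 TPM in DMSO, 8.53 TPM with MS023, 0.0861 TPM in isgCtrl and 0.172 TPM in iPRMT1. PACSIN2, the most abundant paralogue, had 15.8, 15.5, 23.2 and 23.0 TPM in the same order. Between the controls, PACSIN1 passed the filter on low values through DMSO alone. PACSIN2 fell below the DEG threshold under both other scalings of TPM. The 3 DEGs of the list between the controls became 6 without isgCtrl replicate 2, and 1 when every sample had to be above 1.

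Of the 11 genes in the list of actin-binding ADF-homology proteins and 5-lipoxygenase partners around COTL1, all were tested with MS023, where 1 was a DEG with a higher level and 3 with a lower one. ALOX5AP, which presents the substrate to 5-lipoxygenase, rose by 0.57 (limma, Benjamini-Hochberg adjusted p = 0.00369). It passed the filter on low values through MS023 alone, with 0.791 TPM in DMSO and 1.65 TPM with MS023. CFL2, a cofilin, fell by 0.89, GMFG by 0.60 and ALOX5, 5-lipoxygenase itself, by 0.78 (limma, Benjamini-Hochberg adjusted p = 0.0312, a call lost in 7 of 14 alternatives, among them without MS023 replicate 1 or 2 and without DMSO replicate 1 or 2, with an adjusted p of up to 0.0926). GMFG was not a DEG under median-ratio scaling. TWF2, with 0.45, and DBN1 and TWF1, with -0.42 and -0.29, passed the adjusted p of limma but not the DEG threshold. DBN1, drebrin, was the single DEG of the 5 lists in iPRMT1, where it rose by 0.49 (limma, Benjamini-Hochberg adjusted p = 0.0296), and this call was lost with any sample left out, with differences from 0.47 to 0.51 and an adjusted p of limma of up to 0.169. CFL1, the most abundant gene of the list, ranged from 789 TPM in DMSO to 882 TPM in isgCtrl. None of 10 tested genes of the list was a DEG of limma between the controls, where 6 had an unadjusted p under 0.05, and 1 was without isgCtrl replicate 3, without DMSO replicate 3 or under either other scaling.

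**Figure D4:**
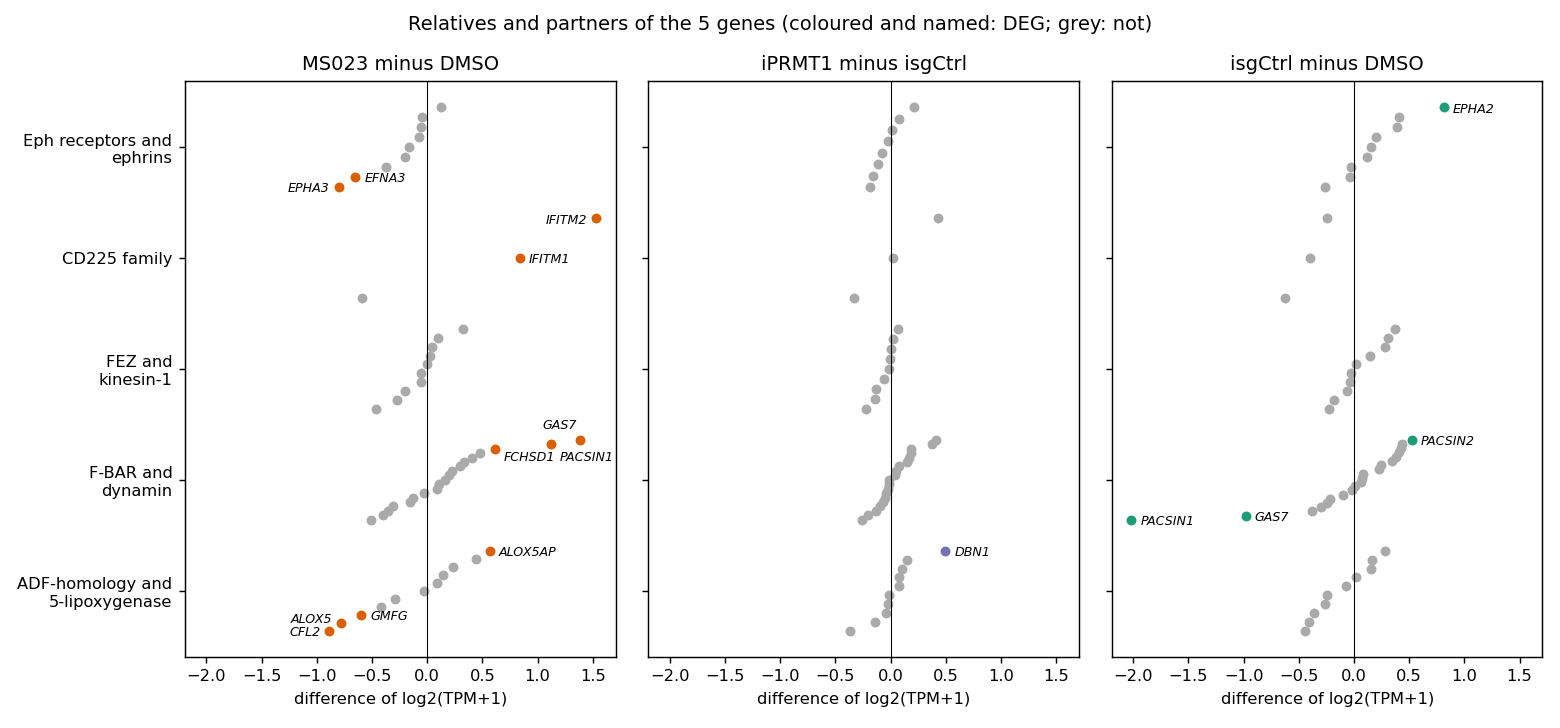
Difference of log2(TPM+1) (x axis) of the tested relatives and partners in 5 lists (y axis, sorted by value within a list) in 3 comparisons. Coloured and named points are DEGs and grey points are not. MS023 minus DMSO has 11 DEGs, isgCtrl minus DMSO 4 and iPRMT1 minus isgCtrl 1, DBN1.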

How the data were processed

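The authors deposited gene-level values as log2(TPM+1), which were used as they stand. Per the study's methods and the submitters' processing notes, reads were checked with FastQC, trimmed with Trimmomatic, mapped with STAR to hg38 with GENCODE V35 transcripts and quantified with Salmon. Tool versions are not given in the sources used here. TPM rescales each sample to one total, so depth is unknown and no count model was used.

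For each comparison, genes whose mean in at least 1 of its groups exceeded 1 on this scale were fitted with limma 3.58.1 in R 4.3.3 (eBayes without trend) on the 6 samples of that comparison, with Benjamini-Hochberg adjustment over all genes tested. DEGs have an adjusted p under 0.05 and an absolute difference above 0.48, the thresholds of the study's methods. The code was tested on simulated data. ± is the SD of 3 samples, and standard errors come from limma.

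Genes named are the 5 genes, PRMT1, cell type markers, DEGs among the relatives, nearest tested neighbours, the 3 most correlated genes and DEGs of opposite sign. Those just outside the thresholds, relatives past the adjusted p alone, IFITM3 and the abundant paralogues and family members given as levels (EPHB1, FEZ2, KIF5B, PACSIN2 and CFL1) were added after their values were seen. The members and lists were chosen with earlier results of these data known. Alternatives were another filter or none, a pseudocount of 0.1 TPM, quantile normalization, median-ratio scaling, a trend in eBayes, a replicate block, all 12 samples in one fit and each sample left out.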

Additional observations from a re-analysis of the deposited data

How the results depend on the processing

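None of 135 alternative values of the differences of the 5 genes (9 for each gene and comparison) changed the sign of a difference that met the DEG thresholds. With a pseudocount of 0.1 TPM, MS023 minus DMSO became -1.40 for EPHB2, -1.71 for SYNDIG1 and -1.95 for PACSIN3, iPRMT1 minus isgCtrl became 0.546 for EPHB2, 1.09 for SYNDIG1 and 0.668 for PACSIN3, and isgCtrl minus DMSO became -1.79 for SYNDIG1. COTL1 became 0.629 under median-ratio scaling and 0.583 under quantile normalization for MS023 minus DMSO, and 0.412 and 0.417 for isgCtrl minus DMSO, where it no longer met the DEG threshold. The difference of EPHB2 between the controls, 0.0025, ranged from -0.07 to 0.04. Without MS023 replicate 2, MS023 replicate 3 or DMSO replicate 1, COTL1 was no DEG with MS023. The 96 DEGs of iPRMT1 minus isgCtrl became 48 without a filter on low values (SYNDIG1 and PACSIN3 were then no DEGs), 2 to 21 with a sample left out (2 without isgCtrl replicate 2), and 0 with the replicate block in limma, where 2054 genes had an unadjusted p under 0.05 and the lowest adjusted p was 0.149. The replicate block gave 4018 DEGs for MS023 minus DMSO, against 3986, and 1584 between the controls, against 1763. Deviations of samples with one number had a mean r of 0.065, -0.047 and -0.102 in the 3 comparisons. Samples of different numbers had -0.033, 0.024 and 0.051. The labels do not say whether samples with one number were prepared together, and these few values cannot decide it. Of MS023 DEGs, 62.4% were lower, against 45% under median-ratio scaling, which moved the median difference of all genes from -0.11 to 0.02, and 50% under quantile normalization. The same shares were 46.9%, 30.1% and 31.1% in iPRMT1 minus isgCtrl, and 48.1%, 63.9% and 53.7% between the controls.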
